A study of Homo sapiens with 30 samples.

Results

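The 10 genes described here belong to the hypoxia response and to glycolysis: SLC2A1, HK2, PFKFB3, LDHA, PGK1, ENO1, CA9, VEGFA, ADM and NDRG1. They were taken by name, as the entries of both deposited count tables whose gene name equals 1 of these symbols, and not by their measured values. They are 10 of 58288 genes in the table of the first experiment and 10 of 20073 in that of the second. After a filter on low counts, 10 of 10 were tested in the first experiment and 9 of 10 in the second, where CA9 had between 0 and 13 counts per library and was left untested.

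When oxygen is low, cells turn on a common set of genes through the hypoxia-inducible factors. With oxygen present, prolyl hydroxylases of the EGLN family mark the alpha subunits HIF1A and EPAS1 for destruction through VHL. When oxygen falls, an alpha subunit pairs with ARNT and binds DNA with the core letters ACGTG or GCGTG. The targets include a glucose transporter, most glycolytic enzymes, the angiogenic factor VEGFA and the tumour hypoxia marker CA9. Several of these genes also answer to MYC, to growth factor signalling, to stress pathways and to nutrient supply, so that a change in them is not specific to oxygen. No group of this series was labelled as grown in low oxygen.

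RNA was sequenced in UMUC1, a human bladder cancer line in which UTX, the histone H3 lysine 27 demethylase made by KDM6A, has lost its function by mutation. There were 30 samples in 10 groups of 3, all harvested on day 3. In the first experiment cells stably carried an empty vector (EV), wild type UTX, or HEAA, a catalytic-site mutant of UTX (H1146A and E1148A), each in pSIN-puro. Each of these 3 lines was grown in full medium, which was MEM plus 10% FBS (fetal bovine serum), or in sphere medium, which was MEM without serum but with B27 lacking vitamin A, 20 ng/ml FGF2 and 20 ng/ml EGF. In the second experiment all cells were in full medium and carried pBabe-puro with either wild type FGFR3 or FGFR3 S249C, a mutation known from bladder tumours, and in addition pCDH-blasticidin with UTX or empty. No group of the second experiment was without an FGFR3 vector. The labels do not say whether a line was a clone or a pool, nor which promoter drives each vector. Nor do they say whether the 3 samples of a group came from separate cultures. The p-values therefore rest on sample-to-sample spread that may be only technical. In bulk RNA, fewer cells of a kind and less RNA per cell cannot be told apart. The experiments used different library kits (TruSeq and NEBNext Ultra II RNA) and were scaled separately, so levels are not compared between them.

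Libraries of the first experiment held 23749352 to 40111234 counts, and those of the second 21672408 to 28290664. KDM6A, counted from both the cells' own gene and the vector, lay between 7.71 and 17.9 CPM (counts scaled to library size with TMM factors) in the 12 EV libraries and between 568 and 957 CPM in the 18 libraries with UTX or HEAA. FGFR3 was at 1227 to 1377 CPM in EV cells with wild type FGFR3 and at 2198 to 2405 CPM in EV cells with S249C, so the 2 FGFR3 lines also differ in FGFR3 level. All 12 epithelial and urothelial markers reached 1 CPM on average, whereas 2 of 7 fibroblast, 2 of 5 endothelial and 1 of 5 leukocyte markers did so in the first experiment. The summed level of the fibroblast markers was 12.1 to 58.2 CPM there, against 6543 to 24429 CPM for the epithelial list.

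The promoters are shown because 8 of the 10 genes moved in 1 direction with the medium, and because CA9 and PFKFB3, which stand apart below, can be set beside LDHA and PGK1. The RefSeq (GRCh38.p14) promoters used here held an entry for 8 of the 10 genes, all but VEGFA and NDRG1. Entries covered 250 bases before and 50 after the transcription start, and for the genes with several entries the first was taken. The letters ACGTG or GCGTG were searched on both strands, and a CACGTG counts once on each strand. In the 300-base windows LDHA held 6 matches, PGK1 4, HK2 3, ENO1 2, and SLC2A1, PFKFB3, CA9 and ADM 1 each. Of 35116 RefSeq promoters of the same length, 48.4% held at least 1 match, 21.4% held ACGTG and 36.5% held GCGTG. Their mean was 0.90 matches and their 90th percentile 3. A match describes letters and is not evidence of binding. With 1 match each, SLC2A1 and CA9 rose in sphere medium in EV cells while PFKFB3 and ADM fell. A link between the number of matches and the response was not tested. SLC2A1 and ENO1 are not printed. In the 250 bases before the start SLC2A1 held 0 matches, as its only match lay after the start, and ENO1 held 2. For the other genes with an entry these 250 bases are printed 5′ to 3′ on the gene's strand, with every match in capitals (CACGT and CACGC are matches read on the other strand).
LDHA (chr11:18394313-18394562, plus strand): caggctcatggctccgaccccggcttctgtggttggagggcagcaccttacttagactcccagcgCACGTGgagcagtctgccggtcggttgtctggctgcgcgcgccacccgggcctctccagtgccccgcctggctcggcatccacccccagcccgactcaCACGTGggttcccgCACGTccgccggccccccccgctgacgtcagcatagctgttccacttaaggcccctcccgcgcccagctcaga
PGK1 (chrX:78103998-78104247, plus strand): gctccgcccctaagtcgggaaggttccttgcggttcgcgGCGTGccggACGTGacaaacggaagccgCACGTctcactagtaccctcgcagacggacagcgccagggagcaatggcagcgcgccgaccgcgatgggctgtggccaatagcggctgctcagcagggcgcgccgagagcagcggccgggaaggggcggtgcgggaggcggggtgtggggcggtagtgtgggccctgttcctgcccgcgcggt
HK2 (chr2:74833877-74834126, plus strand): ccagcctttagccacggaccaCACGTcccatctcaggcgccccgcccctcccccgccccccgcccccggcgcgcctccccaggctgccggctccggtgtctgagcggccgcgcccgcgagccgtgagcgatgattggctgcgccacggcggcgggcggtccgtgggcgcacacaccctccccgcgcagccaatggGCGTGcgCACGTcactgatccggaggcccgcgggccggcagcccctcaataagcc
CA9 (chr9:35673678-35673927, plus strand): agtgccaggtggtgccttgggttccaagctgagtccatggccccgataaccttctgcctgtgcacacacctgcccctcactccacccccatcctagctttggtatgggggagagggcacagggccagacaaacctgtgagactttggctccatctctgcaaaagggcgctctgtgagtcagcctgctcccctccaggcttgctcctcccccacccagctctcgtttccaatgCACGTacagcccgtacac
PFKFB3 (chr10:6144671-6144920, plus strand): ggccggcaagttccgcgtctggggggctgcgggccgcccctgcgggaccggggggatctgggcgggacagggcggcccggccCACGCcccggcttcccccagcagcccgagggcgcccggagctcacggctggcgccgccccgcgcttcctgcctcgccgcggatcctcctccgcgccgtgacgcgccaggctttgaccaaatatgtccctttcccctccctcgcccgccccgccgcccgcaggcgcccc
ADM (chr11:10304823-10305072, plus strand): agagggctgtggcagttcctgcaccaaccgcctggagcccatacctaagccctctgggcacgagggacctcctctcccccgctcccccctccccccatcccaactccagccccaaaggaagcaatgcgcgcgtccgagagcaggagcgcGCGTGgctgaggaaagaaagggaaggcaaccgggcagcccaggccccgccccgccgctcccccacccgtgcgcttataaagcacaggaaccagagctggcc
LDHA and PGK1, which code for lactate dehydrogenase A and phosphoglycerate kinase, held 5 and 3 matches in the printed stretch. The single match of CA9 lay at -18 to -14 from the start, and that of PFKFB3 at -168 to -164.

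The submitters' notes name hg19 and GRCh37; the positions here are from GENCODE v29 and therefore on GRCh38. SLC2A1 and ENO1 are on the minus strand of chromosome 1, at 42925375 to 42959176 and at 8861000 to 8879250. HK2 is on chromosome 2, PFKFB3 on 10, LDHA and ADM on 11, PGK1 on X, CA9 on 9, VEGFA on 6 and NDRG1 on 8. CA9 overlaps ARHGEF39 on the opposite strand, which had 18254 counts over the first experiment against 814 for CA9. The sources used here do not say whether counting used strand, so reads of the 2 genes may not be cleanly separated; ARHGEF39 stayed between 30.6 and 38.0 CPM in all 18 libraries. VEGFA overlaps the antisense gene AL136131.3, which had 3.66% as many counts and went from 1.21 CPM in EV cells in full medium to 11.7 CPM in sphere medium, in the direction of VEGFA itself. HK2 overlaps the opposite-strand AC019069.1, which had 5.43% as many counts and went from 5.58 to 3.03 CPM, against the direction of HK2.

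**Figure D1:**
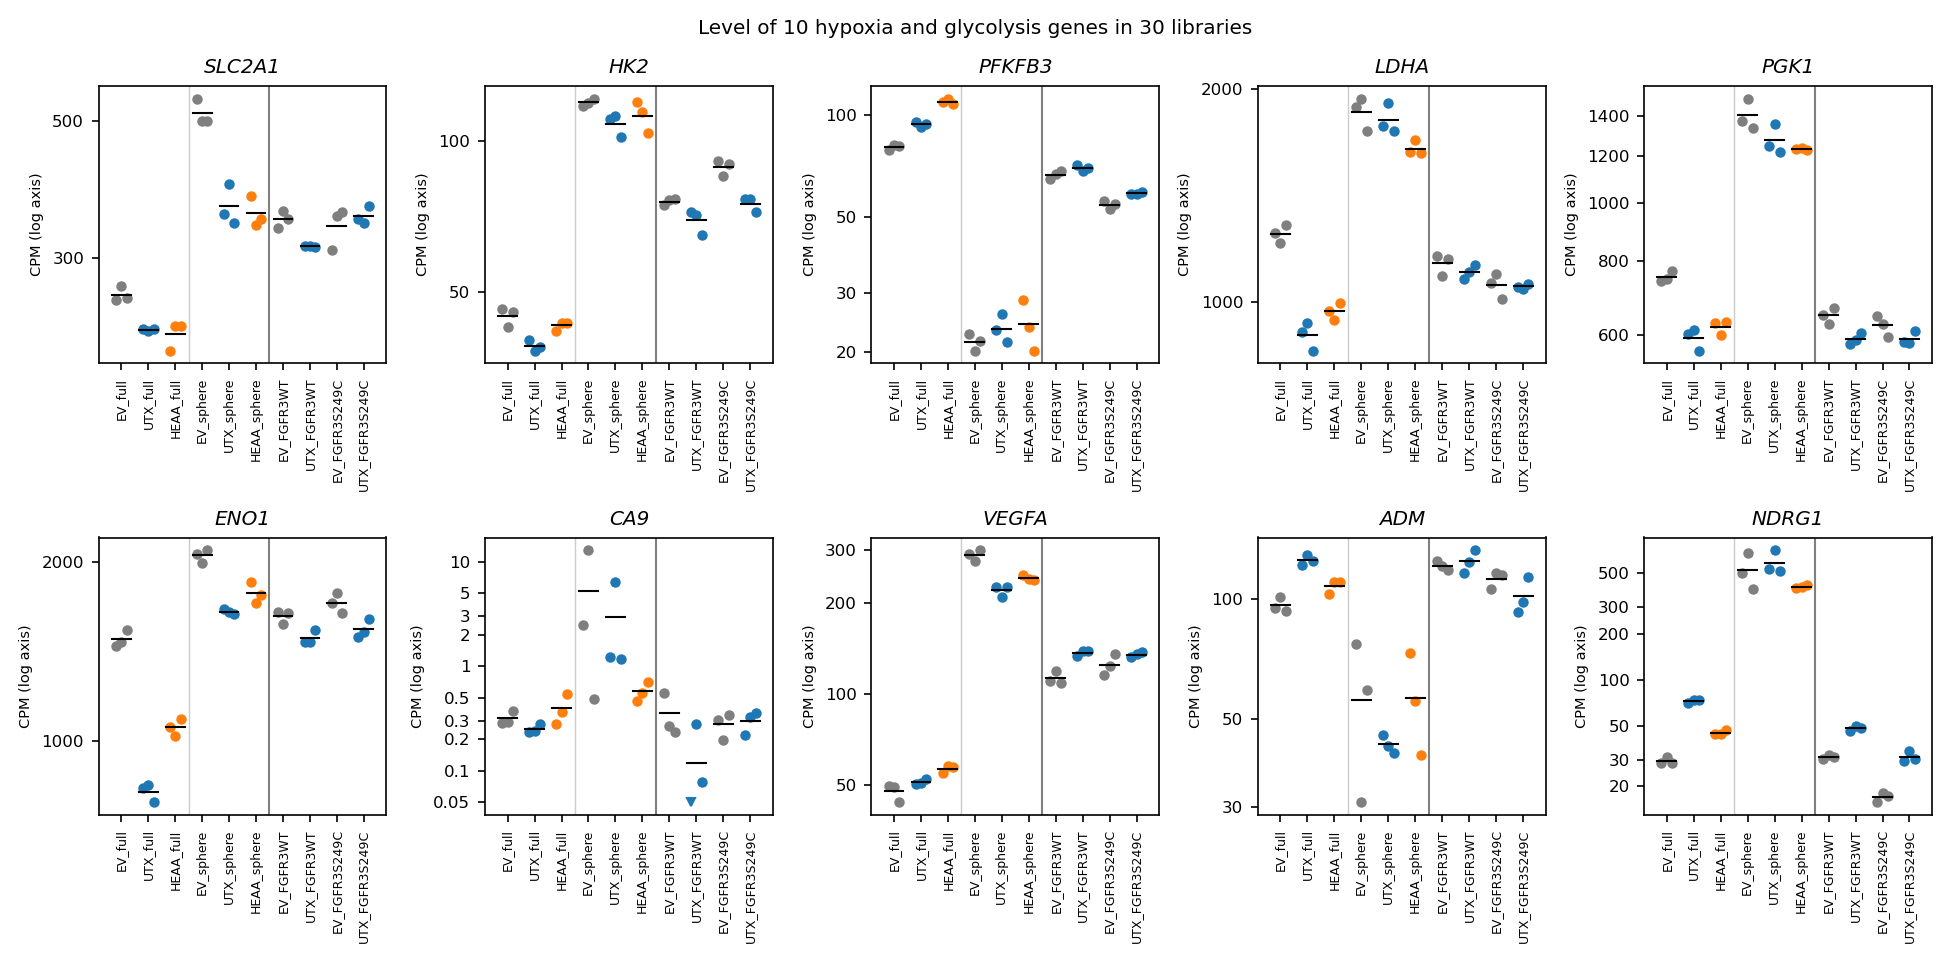
Level of each of the 10 genes in CPM (log axis) in every library, by group, with 1 point per library and 3 libraries per group. In the first experiment, sphere-medium groups stand above full-medium groups for VEGFA, NDRG1, HK2, PGK1, LDHA, ENO1 and SLC2A1. They stand below them for PFKFB3 and ADM.

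Sphere against full medium in EV cells asked what the medium does to these genes without a UTX vector. The media differ in serum, B27, FGF2 and EGF at once, so the parts of these components cannot be told apart. All 10 genes changed, 8 upward and 2 downward. Over all 19629 genes tested 65.5% changed, 33.1% upward and 32.4% downward, so that a change as such was the rule in this comparison. The median of the 10 log2 fold changes was 0.94, against -0.03 over all genes. The 2 genes that fell were PFKFB3 and ADM.

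Among the glucose uptake and early glycolysis genes, SLC2A1, the glucose transporter GLUT1, was at 256, 270.4 and 258 CPM in full medium and at 543, 499.9 and 499.9 CPM in sphere medium. The groups did not overlap, and the fitted difference was 0.97 ± 0.05 (log2, SE; edgeR adjusted p = 3.97e-13). HK2, the hexokinase that traps glucose as its phosphate, went from 46.3, 42.7 and 45.6 CPM to 118, 119 and 121 CPM, a rise of 2.66-fold (log2 1.41 ± 0.05, adjusted p = 1.12e-16). PFKFB3, the kinase that makes fructose 2,6-bisphosphate, an activator of phosphofructokinase, went the other way. It was at 79, 81.8 and 80.9 CPM in full medium and at 22.6, 20.2 and 21.6 CPM in sphere medium, 3.76-fold lower (log2 -1.91 ± 0.08, adjusted p = 2.06e-15).

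The 3 enzymes of lower glycolysis rose less. PGK1, which makes the first ATP of the pathway's pay-off phase, rose from 740.1, 746 and 769.8 CPM to 1378, 1500.0 and 1338 CPM (log2 0.90 ± 0.04, adjusted p = 4.94e-14). LDHA, which turns pyruvate into lactate, rose from 1251, 1211 and 1286 CPM to 1885, 1938 and 1744 CPM (log2 0.57 ± 0.04, adjusted p = 9.7e-11). ENO1, the ubiquitous enolase, rose from 1445, 1464 and 1536 CPM to 2063, 1993 and 2092 CPM (log2 0.47 ± 0.04, adjusted p = 1.49e-10). In each of the 3 genes every sphere library was above every full-medium library.

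Of the hypoxia targets outside glycolysis, NDRG1, CA9 and VEGFA differed most among the 10 genes, while ADM differed less. NDRG1, a stress-responsive gene widely used as a hypoxia marker, was at 28.3, 31.2 and 28.5 CPM in full medium and at 497, 672 and 393 CPM in sphere medium, 17.7-fold higher (log2 4.15 ± 0.15, adjusted p = 2.08e-16). VEGFA, the main angiogenic growth factor, rose 6.1-fold, from 49.7, 49.3 and 43.8 CPM to 291, 277 and 301 CPM (log2 2.61 ± 0.05, adjusted p = 1.9e-21). The VEGFA libraries within each medium lay close together, whereas the sphere libraries of NDRG1 were spread widely. ADM, which codes for the vasodilator peptide adrenomedullin, was at 95, 101 and 93.6 CPM in full medium and at 77.2, 30.9 and 59.2 CPM in sphere medium (log2 -0.79 ± 0.19, adjusted p = 0.00115). Without sphere replicate 2 the difference in ADM was -0.49 (adjusted p = 0.0042).

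CA9, the membrane carbonic anhydrase IX, had 8, 10 and 15 counts in the full-medium libraries, or 0.283, 0.293 and 0.372 CPM. It had 75, 372 and 15 counts in the sphere libraries, or 2.5, 12.9 and 0.486 CPM. The groups did not overlap (log2 4.02 ± 0.85, adjusted p = 0.00029), but the third sphere library was close to full medium and the second far above it. Without sphere replicate 2 the log2 difference in CA9 was 2.21 (adjusted p = 0.00897).

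With library totals in place of TMM factors the median over all genes moved by -0.18, and 23.4% of genes were higher and 43.7% lower in sphere medium. The 10 genes kept their direction and their call under that scaling, with ENO1 at a log2 difference of 0.29 and NDRG1, VEGFA and HK2 still rising.

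UTX and HEAA cells gave the same comparison in other lines. In UTX cells all 10 genes changed between media, 8 upward and 2 downward, against 70.5% of all genes; 35.1% rose and 35.4% fell. In HEAA cells 9 of 10 changed, 7 upward and 2 downward, against 70.8% of all genes; 34.4% rose and 36.3% fell. NDRG1 rose 8.01-fold in UTX and 8.99-fold in HEAA cells, with a log2 SE of 0.14 in both. VEGFA rose by 2.11 ± 0.05 (log2, SE) in both lines, and HK2 by 1.46 ± 0.05 and 1.39 ± 0.05. PFKFB3 fell by 2.00 ± 0.08 and 2.17 ± 0.08, and ADM by 1.54 ± 0.20 and 0.93 ± 0.19. CA9 rose by 3.51 ± 0.97 in UTX cells (adjusted p = 0.00297), a call that was lost without sphere replicate 2 of UTX (2.24, adjusted p = 0.0639). It did not pass in HEAA cells (0.51 ± 1.11, adjusted p = 0.694). With upper-quartile factors 28% of genes were higher and 44.3% lower in UTX cells, and the 8 to 2 split of the 10 genes stayed.

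**Figure D2:**
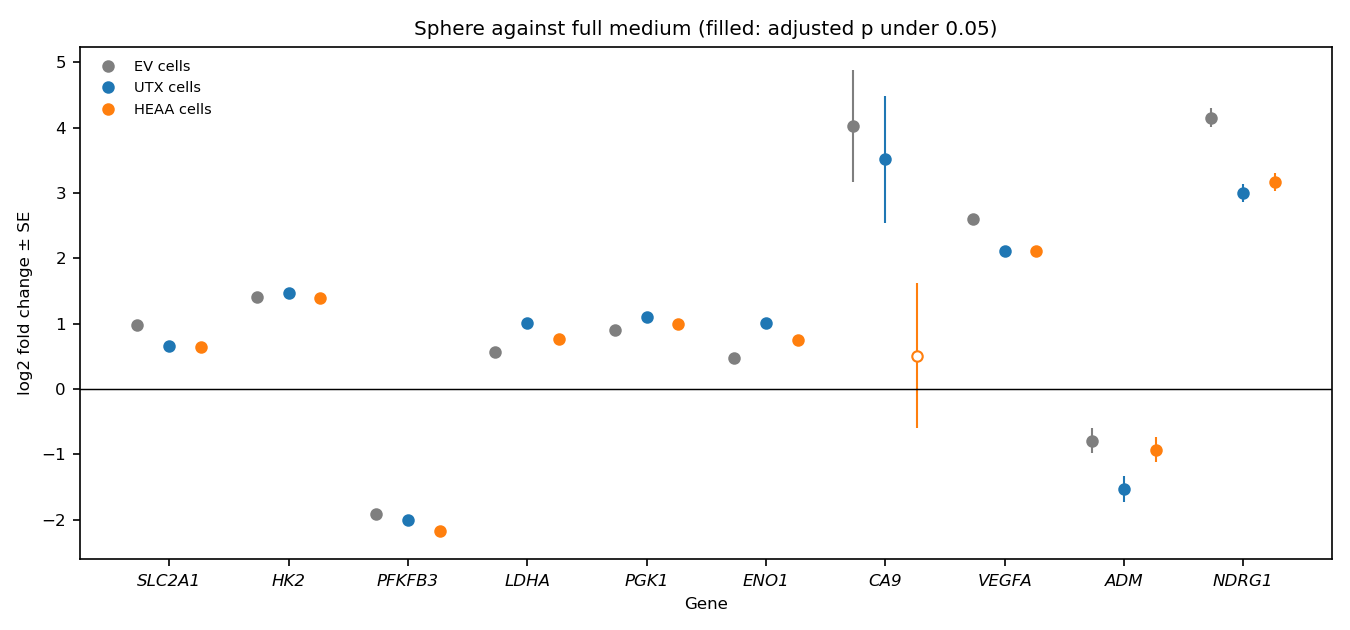
Log2 fold change, sphere minus full medium, for each of the 10 genes in EV, UTX and HEAA cells (point and SE, filled where adjusted p is under 0.05). All genes but CA9 in HEAA cells passed; PFKFB3 and ADM lie below 0 in all 3 lines.

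The other genes of the pathway were described from 4 lists. Of 20 other glycolysis enzymes and transporters, 14 rose and 3 fell in sphere medium in EV cells (70% and 15%, against 33.1% and 32.4% of all genes; median log2 0.72). ALDOC, the brain-type aldolase, rose from 10.7 ± 0.82 to 75.1 ± 9.65 CPM (mean ± SD, n = 3), and ENO2, the neuronal enolase, from 1.52 ± 0.00582 to 4.95 ± 2.36 CPM. Of 20 other hypoxia targets 17 rose and 2 fell (85% and 10%; median log2 1.03). CA12, another carbonic anhydrase, rose from 0.364 ± 0.0365 to 67.8 ± 2.82 CPM (log2 7.54 ± 0.11), while INSIG2, a regulator of sterol synthesis, fell by 0.64 ± 0.08 on the log2 scale.

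Of 15 regulators of the hypoxia response and of glucose uptake, 9 rose and 4 fell (60% and 26.7%, against 33.1% and 32.4% of all genes). HIF1A mRNA rose from 191 ± 5.05 to 348 ± 20.4 CPM (log2 0.86 ± 0.04), whereas EPAS1, coding for HIF-2 alpha, fell by 0.11 ± 0.03; the call for EPAS1 was lost without EV sphere replicate 2 (-0.08, adjusted p = 0.0575). ARNT passed narrowly (0.11 ± 0.04, adjusted p = 0.0243), and VHL did not pass (-0.09 ± 0.05, adjusted p = 0.128). HIF-alpha proteins are controlled mainly by their stability, which these data do not measure. TXNIP and ARRDC4, arrestin-related proteins that limit glucose uptake, rose by 1.39 ± 0.09 and 2.39 ± 0.09, and FBP1, the gluconeogenic fructose bisphosphatase, fell by 2.10 ± 0.14. Of 12 receptors and related ligands of VEGFA and ADM, 8 passed the low-count filter, of which 4 rose and 1 fell (50% and 12.5%). ADM2, a peptide related to adrenomedullin, rose by 3.69 ± 0.12 where ADM itself fell, and PGF, a VEGF family ligand, rose by 2.49 ± 0.11.

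UTX against EV in full medium asked what UTX does to these genes under serum. The lower glycolysis genes fell, and NDRG1 rose. Of the 10 genes 7 changed, 2 upward and 5 downward, against 57.7% of all genes (28.4% upward and 29.2% downward), so most genes changed in this comparison. The median of the 10 log2 fold changes was -0.19, against 0.04 over all genes.

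ENO1 differed most among the enzymes. It was at 1445, 1464 and 1536 CPM in EV cells and at 834, 843 and 789 CPM in UTX cells, 1.8-fold lower (log2 -0.85 ± 0.04, adjusted p = 2.01e-14). LDHA went from 1251, 1211 and 1286 CPM to 907, 936 and 854 CPM (log2 -0.47 ± 0.04, adjusted p = 3.37e-09). In both genes all 3 UTX libraries were below all 3 EV libraries. PGK1 went from 740.1, 746 and 769.8 CPM to 602, 611 and 565 CPM (log2 -0.34 ± 0.04, adjusted p = 5.47e-07). SLC2A1 (log2 -0.19 ± 0.05, adjusted p = 0.00435) and HK2 (-0.20 ± 0.05, adjusted p = 0.00257) fell slightly. PFKFB3 rose slightly (0.22 ± 0.07, adjusted p = 0.00726).

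NDRG1 rose from 28.3, 31.2 and 28.5 CPM to 70.3, 73.9 and 74.1 CPM, 2.48-fold (log2 1.31 ± 0.14, adjusted p = 6.43e-08). Each UTX library was far above each EV library, although all lay well under the sphere-medium level of this gene. VEGFA (0.10 ± 0.05, adjusted p = 0.0733), ADM (0.37 ± 0.18, adjusted p = 0.0909) and CA9 (-0.34 ± 1.32, adjusted p = 0.842) did not pass the test. The ADM groups did not overlap, at 95, 101 and 93.6 CPM in EV and 122, 129 and 125 CPM in UTX cells. ADM passed with only the 2 groups (0.37, edgeR adjusted p = 2.46e-06) and with no low-count filter (0.33, edgeR adjusted p = 5.35e-11). CA9 had 6 to 9 counts per UTX library, and its interval of -3.10 to 2.41 leaves its direction undetermined at this depth. The small differences depended on the scaling. With upper-quartile factors, under which 35.2% of all genes were higher and 23.7% lower, HK2 (-0.10, adjusted p = 0.0948) and SLC2A1 (-0.09, adjusted p = 0.106) did not pass, and VEGFA (0.20, adjusted p = 0.00199) and ADM (0.47, adjusted p = 0.0333) did.

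Of the 20 other glycolysis genes 12 fell and 4 rose with UTX in full medium (60% and 20%, against 29.2% of all genes falling and 28.4% rising; median log2 -0.32). LDHB, the other main lactate dehydrogenase subunit, went from 705 ± 15.7 to 385 ± 24 CPM, and GPI, which makes fructose 6-phosphate, from 445 ± 23 to 256 ± 10.7 CPM. SLC2A3, the glucose transporter GLUT3, rose from 15.4 ± 0.545 to 28.2 ± 1.89 CPM, and SLC16A3, the lactate exporter MCT4, by 0.41 ± 0.06 (log2). Of the 20 other hypoxia targets 9 rose and 4 fell (45% and 20%; median log2 0.35). PLOD2, a collagen lysyl hydroxylase, rose from 0.668 ± 0.188 to 4.3 ± 0.28 CPM. LOX, lysyl oxidase, fell from 5.23 ± 0.422 to 0.815 ± 0.109 CPM. Among 15 regulators 6 rose and 2 fell (40% and 13.3%), with TXNIP up by 0.97 ± 0.09, EPAS1 up by 0.33 ± 0.03 and FBP1 down (log2 -2.34 ± 0.15). Of 8 tested receptors and ligands 6 rose and 1 fell (75% and 12.5%). Among those that rose was RAMP1, a subunit of the receptors for the calcitonin gene-related peptide family (1.06 ± 0.229 to 5.44 ± 0.449 CPM).

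**Figure D3:**
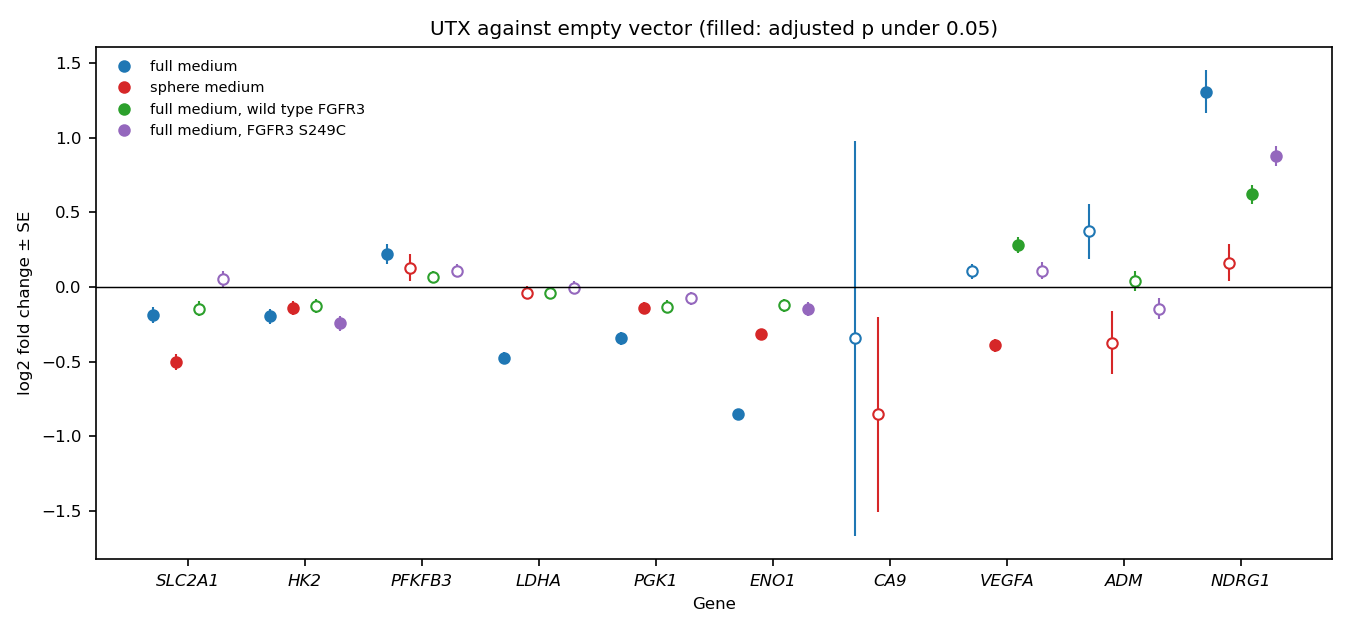
Log2 fold change, UTX minus EV, for each of the 10 genes in full medium, in sphere medium and beside each form of FGFR3 (point and SE, filled where adjusted p is under 0.05). NDRG1 is above 0 and filled in the 3 full-medium settings, and ENO1 is below 0 in all 4 settings, filled in 3 of them.

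In sphere medium UTX lowered 5 of the 10 genes and raised none, against 48.4% of all genes changed (22.8% upward and 25.6% downward). With library totals it lowered 3 and raised 1, PFKFB3 (0.24, adjusted p = 0.0282). SLC2A1 was at 543, 499.9 and 499.9 CPM in EV cells and at 354, 396 and 341 CPM in UTX cells (log2 -0.50 ± 0.05, adjusted p = 5.78e-08). VEGFA went from 291, 277 and 301 CPM to 226, 211 and 226 CPM (log2 -0.39 ± 0.04, adjusted p = 1.65e-07), and ENO1 from 2063, 1993 and 2092 CPM to 1664, 1647 and 1633 CPM (log2 -0.31 ± 0.04, adjusted p = 1.85e-07). In these 3 genes the EV and UTX libraries did not overlap.

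HK2 (-0.14 ± 0.05, adjusted p = 0.0147) and PGK1 (-0.14 ± 0.04, adjusted p = 0.0101) passed narrowly. HK2 no longer passed without EV sphere replicate 3 (adjusted p = 0.0586) or UTX sphere replicate 3 (adjusted p = 0.112), nor PGK1 without EV sphere replicate 2 (adjusted p = 0.0745) or UTX sphere replicate 3 (adjusted p = 0.0637). Both were at -0.03 with library totals, under which the median of all genes moved by 0.11 and 30.7% of genes were higher and 17.1% lower. LDHA did not pass (-0.04 ± 0.04, adjusted p = 0.518), with an interval of -0.12 to 0.05, nor did PFKFB3 (0.13 ± 0.09, adjusted p = 0.247). NDRG1 was at 497, 672 and 393 CPM in EV and 530.0, 704 and 513 CPM in UTX cells, so the groups overlapped (0.16 ± 0.12, adjusted p = 0.306). Without EV sphere replicate 2 the difference in NDRG1 was 0.38 (adjusted p = 0.00331) and that in ADM -0.67 (adjusted p = 0.000812), against -0.37 ± 0.21 (adjusted p = 0.155) for ADM with all libraries. CA9 did not pass with all libraries (-0.85 ± 0.66, adjusted p = 0.308), and passed without EV replicate 3 (-1.39, adjusted p = 0.0391) or without UTX replicate 2 (-2.14, adjusted p = 0.0244).

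Of the 20 other glycolysis genes 10 fell and 3 rose with UTX in sphere medium (50% and 15%, against 25.6% of all genes falling and 22.8% rising; median log2 -0.17). Of the 20 other hypoxia targets 10 fell and 5 rose (50% and 25%; median log2 -0.03). ALDOC went from 75.1 ± 9.65 to 34.8 ± 2.72 CPM, SLC2A3 from 14.7 ± 3.92 to 4.58 ± 2.84 CPM and LOX from 26.6 ± 4.42 to 3.18 ± 0.912 CPM. SLC16A3 rose by 0.85 ± 0.06 and CA12 by 1.28 ± 0.05 on the log2 scale. SLC2A3 thus rose with UTX in full medium and fell in sphere medium, and the difference between the 2 effects passed the test (-2.56 ± 0.28, adjusted p = 2.18e-07). Of 15 regulators 6 rose and 3 fell (40% and 20%); ARNT2, a partner protein of the HIF family, rose from 4.93 ± 0.105 to 13.7 ± 2.38 CPM. Of 8 receptors and ligands 3 rose and 3 fell (37.5% each): NRP1 and NRP2, the neuropilin co-receptors of VEGFA, moved in opposite directions (log2 2.10 ± 0.16 and -1.60 ± 0.08), and ADM2 fell by 0.75 ± 0.09.

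**Figure D4:**
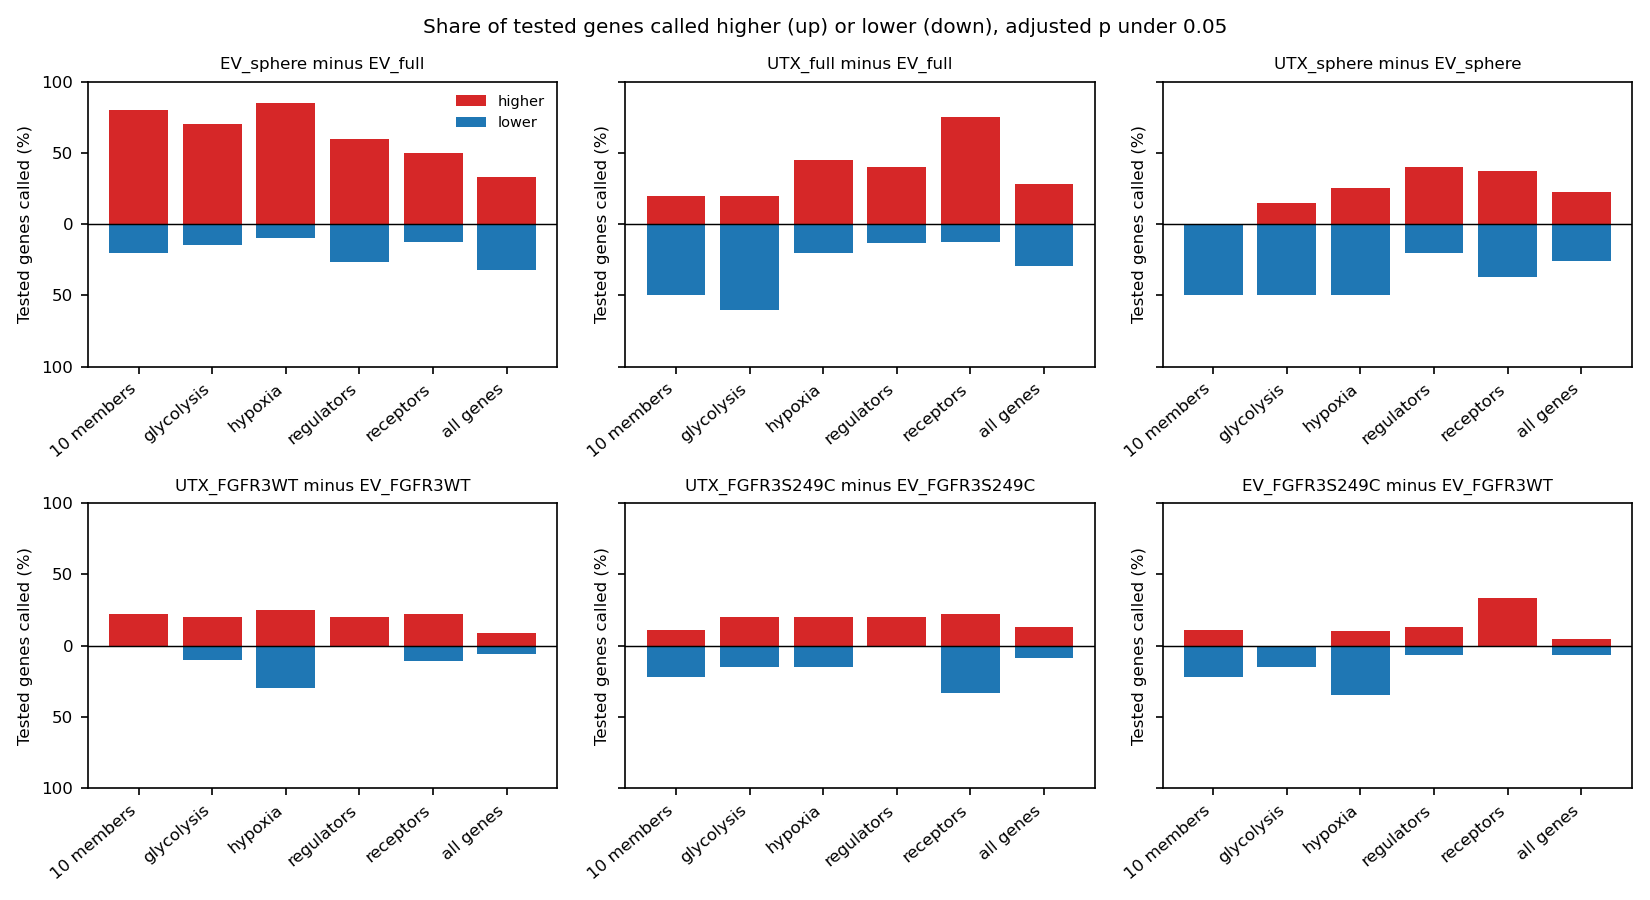
Share of tested genes called higher (bars up) or lower (bars down) at adjusted p under 0.05 among the 10 members, 4 other lists and all genes, in 6 comparisons. Sphere medium in EV cells has the highest shares of rising members and hypoxia targets (80% and 85%), against 33.1% of all genes.

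The effect of UTX on these genes differed with the medium. The difference between the UTX effect in sphere and in full medium was tested directly, and it passed for 7 of the 10 genes, 3 positive and 4 negative, against 37.3% of all genes (21.1% positive and 16.2% negative). It was positive where the fall with UTX was smaller in sphere medium: ENO1 (0.54 ± 0.05, adjusted p = 2.77e-08), LDHA (0.44 ± 0.06, adjusted p = 4.91e-06) and PGK1 (0.20 ± 0.06, adjusted p = 0.0112). It was negative for NDRG1 (-1.15 ± 0.19, adjusted p = 4.66e-05), which rose with UTX in full medium and did not pass in sphere medium. It was also negative for VEGFA (-0.49 ± 0.07, adjusted p = 3.34e-06) and SLC2A1 (-0.31 ± 0.07, adjusted p = 0.00203), and for ADM (-0.74 ± 0.28, adjusted p = 0.0405). The call for ADM was lost in 11 of 12 fits that left out 1 library, all but EV sphere replicate 2 (adjusted p 0.0577 to 0.19), and without EV sphere replicate 1 the value was -0.44 (adjusted p = 0.19). PGK1 did not pass with upper-quartile factors (0.15, adjusted p = 0.0503). HK2 (0.05 ± 0.07), PFKFB3 (-0.09 ± 0.11) and CA9 (-0.51 ± 1.52) did not pass. KDM6A itself moved with the medium, from 579 ± 12.7 to 861 ± 14.9 CPM in UTX cells and from 17.4 ± 0.745 to 8.18 ± 0.784 CPM in EV cells (difference of the effects 1.67 ± 0.07, adjusted p = 4.26e-14). The part of the UTX level in these differences was not tested.

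HEAA carries changes in the demethylase site, and comparing it with EV and with UTX asks which differences also come with the mutant. The UTX and HEAA comparisons share their EV libraries, so their values are set side by side without a measure of agreement. In full medium 7 of 10 genes differed between HEAA and EV, 3 upward and 4 downward, against 48.5% of all genes (23.2% upward and 25.3% downward). ENO1 was at 1057, 1018 and 1088 CPM in HEAA cells, between the EV and the UTX libraries (HEAA minus EV -0.49 ± 0.04, adjusted p = 2.84e-10). NDRG1, at 44.1, 44.1 and 46.9 CPM, was also between them (0.62 ± 0.15, adjusted p = 0.00127). PFKFB3 was highest in HEAA cells, at 109.5, 112 and 108 CPM (0.44 ± 0.07, adjusted p = 8.91e-06). LDHA (-0.36 ± 0.04), PGK1 (-0.28 ± 0.04), SLC2A1 (-0.21 ± 0.05) and VEGFA (0.25 ± 0.05) also passed.

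Set directly against HEAA in full medium, UTX cells differed in 4 of 10 genes, 1 upward and 3 downward, against 21.4% of all genes (8.95% upward and 12.4% downward). KDM6A was also lower in UTX than in HEAA cells, in full medium (-0.26 ± 0.04, adjusted p = 2.65e-05) and in sphere medium (-0.13 ± 0.04, adjusted p = 0.0139), so the form and the amount of UTX cannot be told apart. ENO1 was lower in UTX cells (-0.36 ± 0.04, adjusted p = 3.77e-07) and NDRG1 higher (0.69 ± 0.14, adjusted p = 0.000957). The calls for PFKFB3 (-0.22 ± 0.07, adjusted p = 0.0197) and VEGFA (-0.15 ± 0.05, adjusted p = 0.0375) were weak. The first was lost on leaving out any 1 of the 6 libraries and the second on leaving out any but UTX replicate 3 (highest adjusted p 0.09 and 0.159). With upper-quartile factors 12.5% of all genes were higher and 9.86% lower in this comparison. SLC2A1 (0.02 ± 0.05), PGK1 (-0.06 ± 0.04) and LDHA (-0.11 ± 0.04, adjusted p = 0.0715) did not pass.

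In sphere medium 7 of 10 genes were lower in HEAA than in EV cells and none higher, against 41.4% of all genes (19.9% upward and 21.5% downward; 28.3% and 13.7% with library totals). With library totals 4 of the 10 were lower and 1 higher, PFKFB3 (0.28, adjusted p = 0.0103). SLC2A1 was at 378, 339 and 347 CPM in HEAA cells (-0.53 ± 0.05, adjusted p = 2.9e-08), VEGFA at 248.9, 242 and 239.7 CPM (-0.25 ± 0.04, adjusted p = 7.02e-05) and ENO1 at 1852, 1708 and 1756 CPM (-0.21 ± 0.04, adjusted p = 5.37e-05). No HEAA library of these 3 genes reached the EV range. LDHA (-0.17 ± 0.04) and PGK1 (-0.19 ± 0.04) passed, and did not with library totals (adjusted p 0.139 and 0.0831), under which NDRG1 did not pass either (adjusted p = 0.0998). NDRG1 (-0.36 ± 0.12, adjusted p = 0.0231) and CA9 (-3.19 ± 0.79, adjusted p = 0.00243) passed with all libraries, but without EV sphere replicate 2 NDRG1 was at -0.13 (adjusted p = 0.352) and CA9 at -1.36 (adjusted p = 0.112). NDRG1 also failed without any 1 HEAA sphere library (adjusted p 0.0525 to 0.0709).

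Between UTX and HEAA in sphere medium 4 of 10 genes differed, 2 each way, against 20% of all genes (8.87% upward and 11.2% downward). NDRG1 was higher in UTX cells, at 530.0, 704 and 513 CPM against 398, 403 and 413 CPM (0.52 ± 0.12, adjusted p = 0.00462), a call lost without UTX sphere replicate 2 (0.35, adjusted p = 0.0574). LDHA (0.14 ± 0.04, adjusted p = 0.0278), VEGFA (-0.14 ± 0.04, adjusted p = 0.0295) and ENO1 (-0.10 ± 0.04, adjusted p = 0.0433) passed narrowly. LDHA no longer passed on leaving out UTX replicate 1 (adjusted p = 0.0602) or 2 (0.08, adjusted p = 0.269) or any HEAA replicate (adjusted p 0.0565 to 0.132). VEGFA no longer passed without UTX replicate 2 (adjusted p = 0.0947) or HEAA replicate 1 (adjusted p = 0.0722), and ENO1 without UTX replicate 2 or 3 or HEAA replicate 1 or 3 (adjusted p 0.0565 to 0.161). CA9 did not pass (2.34 ± 0.84, adjusted p = 0.0547), but it did with DESeq2 (adjusted p = 0.0487), no low-count filter, only the 2 groups (adjusted p = 0.0185) or the replicate block. It also passed without UTX replicate 1 (adjusted p = 0.037) or 3 (adjusted p = 0.0393). The HEAA effect differed with the medium for 5 genes, 2 positive and 3 negative, against 33% of all genes (18.7% positive and 14.3% negative): ENO1 (0.28 ± 0.05), LDHA (0.19 ± 0.06), VEGFA (-0.50 ± 0.07), SLC2A1 (-0.32 ± 0.07) and NDRG1 (-0.98 ± 0.19). The difference between UTX and HEAA itself differed with the medium for ENO1 (0.25 ± 0.05, adjusted p = 0.00374) and LDHA (0.25 ± 0.06, adjusted p = 0.0174), against 5.51% of all genes (3.36% positive and 2.15% negative; 3.07% and 3% with upper-quartile factors). The call for LDHA was lost without HEAA full replicate 1 or 3, HEAA sphere replicate 1 or 3, UTX full replicate 3 or UTX sphere replicate 2 (adjusted p 0.0559 to 0.092).

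A pair of sphere-medium libraries, replicate 2 of EV and replicate 2 of UTX, stood apart in CA9, NDRG1 and some of the other hypoxia and glycolysis genes. CA9 was at 12.9 CPM in the first and 6.4 CPM in the second, against 0.467 to 2.5 CPM in the other 7 sphere libraries. NDRG1 was at 672 and 704 CPM in them, against 393 to 530.0 CPM in the others. The next genes were chosen from the hypoxia and glycolysis lists after their values were seen. SLC2A3 was at 12.8, 19.2 and 12.2 CPM in EV replicates 1, 2 and 3 and at 3.42, 7.81 and 2.5 CPM in those of UTX. P4HA1, a collagen prolyl hydroxylase, was at 26.5, 34.9 and 20.4 CPM and at 25.7, 35.1 and 23.6 CPM, and ENO2 at 4.21, 7.59 and 3.04 CPM and at 2.59, 4.74 and 2.71 CPM. Replicate 2 was the highest of its group for all of these genes. ADM, ANKRD37 and DDIT4, which belong to the same response, were lowest in EV replicate 2. ANKRD37 was at 16.9, 5.29 and 14.1 CPM and DDIT4 at 947, 533 and 839 CPM in EV replicates 1, 2 and 3. VEGFA was lowest in replicate 2 of both groups, at 291, 277 and 301 CPM in EV and 226, 211 and 226 CPM in UTX. LDHA and PGK1 were highest there in both groups, whereas SLC2A1, HK2, PFKFB3 and ENO1 held no common rank. In CA9 the HEAA libraries showed no such replicate, at 0.467, 0.552 and 0.714 CPM. Over all genes, EV sphere replicate 2 differed from replicates 1 and 3 with a chi-square of 11.8 and 11.7 per degree of freedom, against 5.63 between those 2. UTX sphere replicate 2 stood less far apart (4.04 and 3.66, against 2.16). For HEAA sphere replicate 2 these values were 6.73 and 4.46, against 2.76. With sphere replicate 2 of EV and of UTX both left out, an alternative added after the values were seen, CA9 still rose in sphere medium in EV (log2 2.21, adjusted p = 0.000341) and in UTX cells (2.23, adjusted p = 0.000834). NDRG1 was then higher in UTX than in HEAA sphere cells (0.34, adjusted p = 0.00109) and in UTX than in EV sphere cells (0.22, adjusted p = 0.0163). The labels name no difference in handling between these libraries, and the part of any such difference in the values was not tested.

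**Figure D5:**
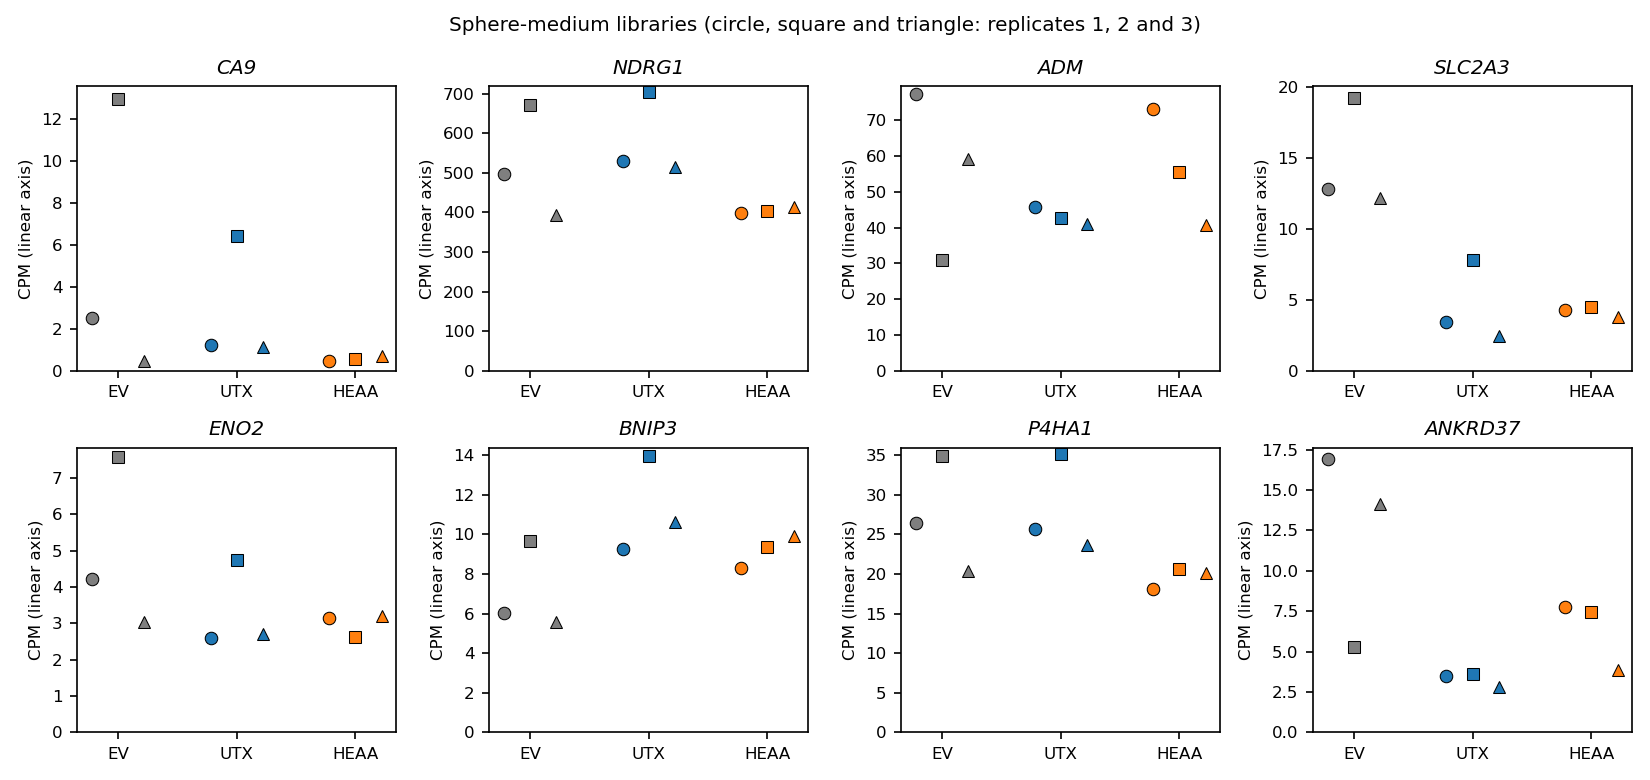
CPM on linear axes in the 9 sphere-medium libraries for CA9, NDRG1, ADM and 5 further genes, with circle, square and triangle for replicates 1, 2 and 3. The square of EV and that of UTX lie highest for CA9, NDRG1, SLC2A3, ENO2, BNIP3 and P4HA1, and the EV square lies lowest for ADM and ANKRD37.

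In the second experiment, UTX was compared with EV beside wild type FGFR3 and beside FGFR3 S249C, all in full medium. Beside wild type FGFR3, 2 of 9 genes rose and none fell, against 15.1% of all genes (9.06% upward and 6.01% downward). NDRG1 went from 30.3, 32.2 and 31.3 CPM to 46.3, 49.9 and 48.3 CPM (log2 0.62 ± 0.06, adjusted p = 6.37e-06), and VEGFA from 111, 119 and 109 CPM to 134, 139.6 and 139 CPM (log2 0.28 ± 0.06, adjusted p = 0.00229). In both genes every UTX library was above every EV library. ENO1 (-0.12 ± 0.04, adjusted p = 0.0852), PGK1 (-0.13 ± 0.04, adjusted p = 0.0572) and SLC2A1 (-0.15 ± 0.05, adjusted p = 0.0761) did not pass in the main edgeR fit. Each passed as lower with DESeq2 (adjusted p 0.0208, 0.0112 and 0.0326) and with edgeR on only the 2 groups (adjusted p 0.0431, 0.0277 and 0.012). With library totals PGK1 (edgeR adjusted p = 0.0396) and SLC2A1 (0.0444) passed as well. PGK1 also passed with RLE (0.0454) and upper-quartile factors (0.0445). LDHA did not pass in the main fit or with DESeq2 (-0.04 ± 0.04, edgeR adjusted p = 0.614).

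Over all genes, replicate 1 of EV with S249C differed from replicates 2 and 3 with a chi-square of 11.1 and 11.3 per degree of freedom, against 3.91 between those 2. Replicate 3 of UTX with S249C differed from replicates 1 and 2 with 11.6 and 9.99, against 2.03. KDM6A was at 700 CPM in this replicate 3, against 941 and 946 CPM in replicates 1 and 2. Without replicate 1 of EV with S249C, VEGFA passed in EV cells with S249C against the wild type form (0.20, adjusted p = 0.0323). Without replicate 3 of UTX with S249C, ADM passed for UTX against EV beside S249C (-0.24, adjusted p = 0.00795). No other of the 9 tested genes changed its call without either library in the 5 comparisons of this experiment.

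Beside FGFR3 S249C, 1 of 9 genes rose and 2 fell, against 21.5% of all genes (12.9% upward and 8.62% downward; 10.9% and 12.8% with library totals). NDRG1 went from 15.8, 18 and 17.3 CPM to 29.3, 34.1 and 30.5 CPM, 1.84-fold higher (log2 0.88 ± 0.07, adjusted p = 3.25e-07). HK2 fell from 91.1, 85.2 and 89.8 CPM to 76.4, 76.5 and 72.1 CPM (-0.24 ± 0.05, adjusted p = 0.00219). Neither gene's groups overlapped. ENO1 passed (-0.15 ± 0.04, adjusted p = 0.0293) but not without EV replicate 2 (adjusted p = 0.12), UTX replicate 1 (adjusted p = 0.15) or UTX replicate 2 (adjusted p = 0.0958). VEGFA was at 0.11 ± 0.05 (adjusted p = 0.176) and LDHA at -0.01 ± 0.04 (adjusted p = 0.948). FGFR3 itself was slightly higher in UTX than in EV cells beside S249C (0.16 ± 0.05, edgeR adjusted p = 0.0403). The part of the FGFR3 level in these differences was not tested. The UTX effect did not differ between the FGFR3 forms for any of the 9 genes by edgeR or DESeq2, against 0.686% of all genes (0.572% positive and 0.113% negative); SLC2A1, VEGFA and NDRG1, 3 genes in all, had an unadjusted p under 0.05.

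In EV cells, S249C in place of the wild type form changed 3 of 9 genes, 1 upward and 2 downward, against 10.8% of all genes (4.31% upward and 6.45% downward). NDRG1 was lower with S249C, at 15.8, 18 and 17.3 CPM against 30.3, 32.2 and 31.3 CPM (log2 -0.88 ± 0.07, adjusted p = 2.19e-06). PFKFB3 was also lower, at 55.9, 52.9 and 54.8 CPM against 64.8, 66.9 and 68.5 CPM (-0.29 ± 0.04, adjusted p = 0.000394). HK2 was higher, at 91.1, 85.2 and 89.8 CPM against 74.4, 76.2 and 76.4 CPM (0.23 ± 0.05, adjusted p = 0.00742). None of these 3 pairs of groups overlapped. As FGFR3 itself was more abundant in the S249C cells, the form and the amount of FGFR3 cannot be told apart.

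In UTX cells 3 of 9 genes were lower with S249C, against 3.05% of all genes (1.71% upward and 1.34% downward). They were NDRG1 (-0.62 ± 0.06, adjusted p = 4.27e-05), PFKFB3 (-0.25 ± 0.04, adjusted p = 0.00309) and ADM (-0.29 ± 0.07, adjusted p = 0.0315). The call for ADM was lost without UTX S249C replicate 1 (adjusted p = 0.149) or 2 (adjusted p = 0.132), and without wild type UTX replicate 2 (adjusted p = 0.116) or 3 (adjusted p = 0.168). CA9 had 5 to 13 counts in each EV library of this experiment and 0 to 10 in each UTX library. It was at or under 0.56 CPM in all 12, a level too low for a comparison.

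In the lists, UTX beside wild type FGFR3 raised 4 and lowered 2 of 20 other glycolysis genes (20% and 10%) and raised 5 and lowered 6 of 20 other hypoxia targets (25% and 30%), against 9.06% and 6.01% of all genes. Beside S249C these counts were 4 and 3, and 4 and 3 (20% and 15% in each list), against 12.9% and 8.62% of all genes. SLC16A3 rose by 0.31 ± 0.06 and 0.34 ± 0.06, ENO2 by 0.56 ± 0.09 and 0.36 ± 0.09, and EGLN3, an oxygen-sensing prolyl hydroxylase that is itself a HIF target, by 0.68 ± 0.12 and 0.55 ± 0.12. NRP1 fell by 1.08 ± 0.07 and 0.59 ± 0.06. In EV cells S249C, set against the wild type form, raised 2 and lowered 7 of the hypoxia targets (10% and 35%), and raised none and lowered 3 of the glycolysis genes (15%), against 4.31% and 6.45% of all genes. ANGPTL4, a regulator of lipoprotein lipase, rose from 6.17 ± 0.391 to 12.8 ± 1.1 CPM, and EPAS1 fell by 0.25 ± 0.05. Of the 15 regulators 3 rose (20%) and none fell with UTX beside each FGFR3 form, against 9.06% of all genes rising beside the wild type and 12.9% beside S249C. They were ARNT2, ARRDC4 and TXNIP beside the wild type and ARNT2, EPAS1 and HIF1A beside S249C. The call for TXNIP (0.18 ± 0.05, adjusted p = 0.0302) was lost without any 1 library but EV replicate 3 (adjusted p 0.0558 to 0.185). That for HIF1A (0.18 ± 0.05, adjusted p = 0.0255) was lost with library totals (adjusted p = 0.066), with only the 2 groups (adjusted p = 0.0831) and without EV replicate 1 or 3 or UTX replicate 1 or 2 (adjusted p 0.0706 to 0.0999).

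Ordered by level within the first experiment, the sphere groups were the 3 highest for SLC2A1, HK2, LDHA, PGK1, ENO1, VEGFA and NDRG1. SLC2A1 was highest in EV sphere (514 ± 24.9 CPM), apart from UTX sphere (364 ± 28.5 CPM) and HEAA sphere (355 ± 20.7 CPM), which overlapped each other. HK2 overlapped between neighbours among all 3 sphere groups. For PFKFB3 the order was HEAA full, UTX full and EV full, all 3 apart, and then the sphere groups, which overlapped. Per kilobase of each gene's longest principal transcript, ENO1 and LDHA were the highest in EV cells in full medium (632 and 517 CPM per kb) and CA9 the lowest (0.195 CPM per kb). In sphere medium ENO1 and LDHA stayed first (874 and 768 CPM per kb). VEGFA moved from the sixth place (39.7 CPM per kb) to the fourth (242 CPM per kb). The length used for VEGFA was 1199 bases, from 1 principal transcript among 32, so its place depends on that choice. NDRG1 went from 7.81 to 139 CPM per kb.

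Likeness was measured as Pearson's r over 10 group means, centred within each experiment, among 12214 genes with a mean of at least 2 CPM. It is a description, since the 10 points share libraries and the medium sets most of their spread. For ENO1 the closest were CCDC86 (r = 0.999) and CLUH, for HK2 ACTR1A and IGSF8, for VEGFA TRAF7 and FAM83G, and for NDRG1 RYBP and ZFP36. PFKFB3 was closest among named genes to RHOBTB3, SLC2A1 to RBM15B, LDHA to GATAD2A and PGK1 to ATXN7L3. Among the 10 genes themselves, HK2 and PFKFB3 had the most opposite profiles (r = -0.99), and LDHA and PGK1 (r = 0.98) ran in parallel. CA9 was under that mean and was not compared.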

How the data were processed

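RNA of the 30 samples was measured by sequencing. The authors deposited estimated counts (expected counts) per gene, as whole numbers that are not scaled to library size; per the submitters' processing notes, Salmon 0.8 and DESeq2 were used and the builds were hg19 and GRCh37. How transcripts were summed to genes, with which annotation release and with what use of strand, is not given in the sources used. Groups came from GEO's labels. The 2 experiments were fitted apart in R 4.3.3 with edgeR 4.0.16, using group means, TMM factors, filterByExpr on the groups, quasi-likelihood F tests over all genes that passed, and Benjamini-Hochberg adjustment over them, with adjusted p under 0.05 as the threshold ("passed", "rose", "fell"). The residual degrees of freedom were 12 and 8 and the common biological coefficients of variation 4.58% and 6.05%. CPM values are TMM-scaled, and SE is the log2 fold change without sign divided by the root of F; intervals are at 95%. DESeq2 1.42.0, other scalings, no filter, the compared groups alone, a replicate block and each library left out were alternatives. The script was tested on simulated counts. Genes named from the lists were HIF1A, EPAS1, ARNT, VHL, TXNIP and SLC16A3 and, per list, the largest differences in each direction among separated genes that passed and averaged 2 CPM or more. The members, lists, tests and this rule were chosen with earlier results of these data known, so no list is independent support for a direction. Not every gene that this rule selects is reported here.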

Additional observations from a re-analysis of the deposited data

Results flagged for a closer look

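The UTX effect in sphere medium differed from that in full medium, by a test of the difference itself with edgeR (log2, sphere minus full), for SLC2A1 (-0.312), LDHA (0.4382), PGK1 (0.2044), ENO1 (0.5355), VEGFA (-0.4942), ADM (-0.7448) and NDRG1 (-1.148). The HEAA effect differed in the same way for SLC2A1 (-0.3239), LDHA (0.1924), ENO1 (0.2811), VEGFA (-0.5008) and NDRG1 (-0.9798). The difference between UTX and HEAA cells depended on the medium for LDHA (0.2458) and ENO1 (0.2544). These 14 results come from tests that share libraries, so they are not independent of each other. The UTX result for ADM was lost with DESeq2 (adjusted p = 0.0933), with library totals (edgeR adjusted p = 0.0545) and in most fits that left out 1 library. That for PGK1 was lost with upper-quartile factors (edgeR adjusted p = 0.0503). The UTX and HEAA result for LDHA was lost in several fits that left out 1 library.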

How the results depend on the processing

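For the single genes, 1114 values under other scalings, filters, tests and fits left 1056 on the same side of the threshold, 20 that lost the call, 38 that gained it and 0 that reversed a call; 1224 values with 1 library left out gave 1153, 57, 14 and 0. Among those on the same side, 8 and 48 changed sign without passing in either fit. For the 175 pairs of a comparison and a list gene that the naming rule selects in it, 2471 values gave 100 lost calls, 30 gained and 2 reversed. Both reversals were in sphere against full medium in EV cells with library totals: ARNT went from 0.11 (adjusted p = 0.0243) to -0.071 (adjusted p = 0.131), and SLC16A3 from 0.06 (adjusted p = 0.39) to -0.13 (adjusted p = 0.0445). The number of the 10 genes called moved as follows. For the dependence of the UTX and HEAA difference on the medium it was 4 with no low-count filter, and 1 to 2 with 1 library left out, against 2. For UTX beside wild type FGFR3 it was 5 with DESeq2, 4 with library totals and 5 with only the 2 groups, against 2. With 1 library left out it was 2 to 3 for UTX against HEAA in full medium (4 with all), 3 to 6 for UTX against EV in sphere medium (5 with all) and 0 to 4 for UTX against HEAA in sphere medium (4 with all), where it was 2 with replicate 2 of EV and UTX both left out. The 0 was without UTX sphere replicate 2.

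Over all genes, calls with 1 library left out ranged from 58 to 248 for the UTX by FGFR3 difference (133 with all), down to 1124 for S249C in EV cells (2088 with all) and down to 291 for S249C in UTX cells (591 with all). With replicate 2 of EV and UTX sphere left out, 5.11% of genes were higher and 10.6% lower in UTX than HEAA sphere cells, and 2.04% and 2.27% for that difference between media. CA9 had no value in 2 fits on only the 2 groups. Depth limits CA9 most, at 0 to 17 counts per library in full medium.

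Same-numbered samples did not as a rule deviate together. Their correlations ran from -0.22 to 0.17 in the first experiment (7 of 45 above 0.1) and from -0.35 to 0.44 in the second (6 of 18). Those of differently numbered samples ran from -0.35 to 0.28 (18 of 90) and from -0.52 to 0.49 (12 of 36). The numbers were therefore not taken as pairs, and what the larger values come from was not tested. With the replicate block, CA9 in UTX against HEAA sphere cells gained a call (1.98, adjusted p = 0.0405), no other of the 10 genes changed its call, and genes called for the UTX by FGFR3 difference went from 133 to 80.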
